A study of Mus musculus with 12 samples.

Results

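The genes described here build and regulate motile cilia, and comprise 34 members chosen by name for their roles in multiciliated cells, with earlier results of these data known. They were looked up by symbol in a table of 55385 genes counted in bulk RNA from mouse dorsal meninges. All 34 had a row in the table, and 30 had enough counts to be among the 18238 genes tested. They include regulators that switch on the multiciliated state, the dynein arms that drive beating, the parts of the axoneme that the arms act on, and proteins that assemble them. Their levels were compared across 4 groups and set beside Ttr in each library. Ttr encodes transthyretin, the most abundant secreted product of choroid plexus epithelium.

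The groups were Aged TBI, Aged Sham, Young TBI and Young Sham, with 3 libraries in each and 12 in all. Aged TBI and Young TBI mice received a mild traumatic brain injury (TBI), delivered through the closed skull over the right inferior temporal lobe, and Aged Sham and Young Sham mice were anaesthetised without impact. All were wild-type male C57BL/6 mice (C57BL/6J for young mice by the methods) with no transgene or other allele named, and their meninges were taken 1.5 months after the procedure. Young mice were 10 weeks of age and bought from a supplier, whereas aged mice were 20 to 24 months of age and came from the National Institute on Aging, so that age and source cannot be told apart. After saline perfusion the tissue was scraped off the skullcap and did not include the site of impact. Each library pooled 2 mice by the methods, or up to 3 by the legends. P-values therefore measure the spread between pools.

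Motile cilia differ from the single primary cilium that most cells carry in having dynein arms, radial spokes and, usually, a central pair of microtubules, which together produce a beat. Cells with many motile cilia line the brain ventricles as ependyma and the airways as ciliated epithelium, and choroid plexus epithelial cells carry tufts of cilia as well. Their program is started by GEMC1 (Gmnc) and multicilin (Mcidas), which act ahead of TP73 and FOXJ1, and FOXJ1 together with RFX factors switches on the genes of the axoneme. Meningeal fibroblasts, the main cells of the labelled tissue, carry primary cilia and are not known as multiciliated cells.

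Total counts per library ranged from 8092374 to 16087717. Meningeal markers were abundant in all libraries, with Col1a1 at 2370 CPM or more in each, and the summed level of 10 fibroblast and border macrophage markers was 8960 to 10487 CPM in Aged TBI, 8998 to 9510 CPM in Aged Sham, 16134 to 18432 CPM in Young TBI and 14658 to 18513 CPM in Young Sham. CPM are counts per 1e6 counts of a library, after its total is scaled for composition by the TMM method. The 34 motile cilia genes together took 104.6, 148 and 85.7 CPM in Aged TBI libraries 1 to 3, against 342, 244 and 213 CPM in Aged Sham libraries 1 to 3. They took 283, 146 and 258 CPM in Young TBI libraries, against 384, 205 and 299.996 CPM in Young Sham libraries. All 3 Aged TBI libraries thus lay below all 3 Aged Sham libraries, and the spread was wide within every group. Young TBI 2, at 146 CPM, lay just below Aged TBI 2, at 148 CPM. In bulk RNA, fewer cells of a type and less RNA per cell cannot be told apart.

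Levels differed widely between the members when divided by exon length. Averaged over the 12 libraries, Drc7 had the highest level at 16.1 CPM per kilobase, followed by Rsph9 at 10.99, Rsph1 at 8.42 and Foxj1 at 8.36 CPM per kilobase. The dynein heavy chain genes were far lower per kilobase, with Dnah9 at 0.48, Dnah6 at 0.38, Dnah11 at 0.20 and Dnah5 at 0.01 CPM per kilobase. The 4 members that were not tested were near the limit of detection. Mcidas had 1 count in Young TBI 1, 1 count in Young TBI 3 and 0 in the other 10 libraries, where a count of 0 allows up to 3 counts or 0.183 to 0.286 CPM per library. Dnah5, an outer dynein arm heavy chain, had 1 to 5 counts per library. Spag17, a central pair protein, had 0 to 7 counts. Dnah12, an inner arm heavy chain, had 3 to 13 counts.

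Promoter sequence is shown for Tekt1, Spag16 and Dnah6, which followed Ttr from library to library, and for Tekt2, which did not. RFX factors bind the X-box, whose core GTTNCC and its reverse complement GGNAAC were searched on both strands, where N is any base. In the windows from 250 bases before to 50 bases after each start (RefSeq, GRCm38.p6), 29 of the 34 members were matched, some with more than 1 start. The core was found in 27 of 34 member windows (79.4%), against 45.3% of 32851 windows of all genes. The core was present for 9 of the 10 matched members with a called slope on Ttr and for 12 of the 15 matched members without one, against 48.8% of all genes. An exact GTTNCC followed within 3 bases by an exact GGNAAC was found in 0 member windows and in 0.804% of all windows. This search does not count pairs that differ from these letters, such as gttgctcGGCAAC before Tekt2 and gttgctaagcaac before Dnah6. It therefore does not show that full X-boxes were absent, and looser forms were not tested. The forkhead motif GTAAACA or TGTTTAC was in 2 member windows (5.88%), those of Ak7 and Cfap43, and in 3.65% of all windows. The X-box core and the forkhead motif cannot overlap with each other, and a match describes the letters only. For genes with more than 1 start, the start with the most matches is shown. The 250 bases before it are printed 5′ to 3′ with each GTTNCC or GGNAAC in capitals.
Tekt1, minus strand, chr11:72361883-72362132: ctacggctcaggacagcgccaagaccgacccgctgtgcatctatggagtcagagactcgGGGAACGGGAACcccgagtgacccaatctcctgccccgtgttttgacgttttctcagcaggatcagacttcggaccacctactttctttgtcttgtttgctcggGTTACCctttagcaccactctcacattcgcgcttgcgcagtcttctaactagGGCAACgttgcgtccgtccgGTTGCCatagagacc
Spag16, plus strand, chr1:69826720-69826969: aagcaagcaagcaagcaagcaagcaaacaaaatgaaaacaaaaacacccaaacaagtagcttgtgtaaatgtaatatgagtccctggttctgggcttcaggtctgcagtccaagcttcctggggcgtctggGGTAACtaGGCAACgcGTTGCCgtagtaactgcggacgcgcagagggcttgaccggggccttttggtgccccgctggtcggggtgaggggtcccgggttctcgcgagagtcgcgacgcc
Dnah6, minus strand, chr6:73221632-73221881: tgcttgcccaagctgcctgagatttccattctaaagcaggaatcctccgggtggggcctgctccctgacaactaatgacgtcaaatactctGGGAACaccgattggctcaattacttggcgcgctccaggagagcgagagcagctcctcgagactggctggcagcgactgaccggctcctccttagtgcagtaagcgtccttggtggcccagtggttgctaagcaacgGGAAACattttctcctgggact
Tekt2, minus strand, chr4:126325647-126325896: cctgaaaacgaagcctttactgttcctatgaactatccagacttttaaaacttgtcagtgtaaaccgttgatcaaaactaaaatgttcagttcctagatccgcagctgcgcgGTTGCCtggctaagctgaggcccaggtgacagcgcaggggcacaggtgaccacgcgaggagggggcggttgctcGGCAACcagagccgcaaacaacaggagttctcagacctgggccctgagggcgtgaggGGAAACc
The Tekt1 sequence holds 5 matches, Spag16 holds 3, Dnah6 holds 2 and Tekt2 holds 3. The 250 bases before the other start of Tekt1 hold 0 matches, and those before the other starts of Tekt2 hold 1 and 2. Tekt1 and Tekt2 encode tektins of the inner wall of axonemal microtubules.

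The question of whether injury left a lasting mark on these genes in aged mice was addressed by Aged TBI against Aged Sham. In this comparison 9 of the 30 members tested were lower and 0 were higher at an adjusted p under 0.1, whereas 1.26% of all genes were lower and 0.389% were higher. The 9 were Daw1, Trp73, Spag6l, Drc7, Dnah6, Cfap65, Dnali1, Zmynd10 and Cfap43, with adjusted p-values of 0.0802 to 0.094 by edgeR. The median log2 fold change of the 30 members was -1.37, against 0.01 over all genes, and 29 of 30 had a negative value. For 24 of the 30, all 3 Aged TBI libraries were below all 3 Aged Sham libraries, as they were for 8.76% of all genes. The members and all other genes of the table come from the same libraries, so that these counts describe the libraries rather than 30 independent observations.

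Among the regulators, Foxj1, which directs the motile cilium program, had 6.64, 13.7 and 4.94 CPM in Aged TBI libraries 1 to 3, against 35.7, 23.0 and 19.7 CPM in Aged Sham libraries 1 to 3. The ranges did not overlap, and the log2 fold change was -1.63 ± 0.42 (standard error), but the adjusted p of 0.111 did not pass the threshold. Foxj1 lies on the minus strand of chromosome 11 at 116330704 to 116335399 (GRCm38, GENCODE M21). Trp73, a p53 family member required for multiciliated cells, had 1.46, 2.47 and 0.380 CPM in Aged TBI, against 9.54, 6.39 and 3.98 CPM in Aged Sham. It fell by 2.18 ± 0.53 on the log2 scale (adjusted p = 0.094). About 5.1% of its exon bases overlap an antisense gene, Trp73os, and the strand setting of the counting was not given, so a small part of these counts is uncertain. Ccno, a cyclin family protein that acts in the multiplication of centrioles, behaved differently. It had 2.32, 1.37 and 1.29 CPM in Aged TBI, against 1.41, 1.43 and 1.38 CPM in Aged Sham, with overlapping ranges and a log2 fold change of 0.25 ± 0.26 (adjusted p = 0.702).

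Genes of the dynein arms and of their assembly included 4 of the 9 called members. Daw1, which helps to transport outer arms in Chlamydomonas, had 0.183, 0.342 and 0.152 CPM in Aged TBI, against 2.11, 1.16 and 0.730 CPM in Aged Sham. Its log2 fold change was -2.51 ± 0.57 (adjusted p = 0.0802), although it rested on 2 to 5 counts per Aged TBI library. Zmynd10, a cytoplasmic assembly factor of dynein arms, had 1.40, 1.10 and 0.685 CPM in Aged TBI, against 4.30, 2.58 and 3.0 CPM in Aged Sham, a log2 fold change of -1.60 ± 0.37 (adjusted p = 0.0811). The ranges of both genes were apart, and 10.1% of the exon bases of Zmynd10 overlap another gene. Dnah6, an inner arm heavy chain on chromosome 6 (73017606 to 73221651, minus strand), had 1.40, 2.19 and 1.14 CPM in Aged TBI, against 8.05, 5.64 and 4.71 CPM in Aged Sham (log2 fold change -1.95 ± 0.46, adjusted p = 0.0858). Dnali1, an inner arm light chain, had 1.04, 1.85 and 0.761 CPM in Aged TBI, against 4.85, 3.47 and 3.41 CPM in Aged Sham (log2 fold change -1.67 ± 0.37, adjusted p = 0.0802). In both, the highest Aged TBI library was replicate 2 and was still below the lowest Aged Sham library. The remaining dynein heavy chains tested were closer, with Dnah11 at -1.23 ± 0.32 and Dnah9 at -0.56 ± 0.19 on the log2 scale, and neither was called (adjusted p = 0.113 and 0.207).

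Structural genes of the axoneme had log2 fold changes of -2.00 for Spag6l to -0.03 for Tekt2. Drc7, a subunit of the nexin-dynein regulatory complex on chromosome 8 (95055103 to 95078141, plus strand), had 12.9, 23.7 and 6.92 CPM in Aged TBI, against 83.8, 49.7 and 36.8 CPM in Aged Sham. It fell by 1.96 ± 0.46 on the log2 scale (adjusted p = 0.0881), while Drc1 of the same complex had a log2 fold change of -1.56 ± 0.46 (adjusted p = 0.151). Spag6l, a central pair protein, had 1.89, 2.53 and 0.989 CPM in Aged TBI, against 10.0, 4.96 and 6.98 CPM in Aged Sham (log2 fold change -2.00 ± 0.44, adjusted p = 0.0802). Neither Drc7 nor Spag6l had overlapping ranges. Cfap65, a cilia and flagella associated protein, had 7.13, 11.03 and 5.25 CPM in Aged TBI, against 30.02, 22.6 and 23.4 CPM in Aged Sham (log2 fold change -1.69 ± 0.35, adjusted p = 0.0802). Cfap43, also required for sperm flagella, had the smallest called difference, with 3.47, 4.73 and 3.27 CPM in Aged TBI, against 8.44, 6.87 and 5.84 CPM in Aged Sham (log2 fold change -0.88 ± 0.21, adjusted p = 0.0915). Drc7, Drc1, Spag6l, Cfap65 and Cfap43 were lower in every Aged TBI library than in any Aged Sham library, whereas Tekt2 overlapped.

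By role, 2 of 4 dynein motors tested, 2 of 2 assembly factors, 1 of 3 regulators, 0 of 3 radial spoke genes, 1 of 4 regulatory complex and ruler genes, 1 of 6 central pair genes, 0 of 2 tektins and 2 of 6 other axonemal genes were lower in Aged TBI than in Aged Sham. Of all genes 1.26% were lower. With 2 to 6 genes tested per role and all calls close to the threshold, these counts do not show a difference between roles. Radial spoke genes illustrate how unequal members of a complex were. Rsph4a and Rsph1, of the spoke head, had log2 fold changes of -1.51 ± 0.48 and -1.10 ± 0.32, and Rsph9, also of the spoke head, had -0.35 ± 0.19. Tekt1 had a log2 fold change of -1.88 ± 0.54 (adjusted p = 0.144), and Tekt2 had -0.03 ± 0.16 (adjusted p = 0.968). Tekt2 stood at 4.81, 5.07 and 4.87 CPM in Aged TBI, against 5.24, 4.76 and 5.03 CPM in Aged Sham. However, 20.8% of the exon bases of Tekt2 overlap Gm12945 on the opposite strand. Ccdc39 and Ccdc40, which form the ruler that sets axonemal spacing, had values of -0.45 ± 0.16 and -0.29 ± 0.37, and Ccdc39 overlaps Ttc14 over 16.9% of its exon bases. The remaining central pair genes tested were Spag16 at -1.64, Cfap54 at -1.12, Spef2 at -1.10, Hydin at -0.96 and Cfap46 at -0.23. Ak7, an adenylate kinase of the axoneme, stood at -1.52, Cfap52 at -1.52, Cfap44 at -0.98 and Cfap70 at -0.67, and none of these 9 was called.

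**Figure D1:**
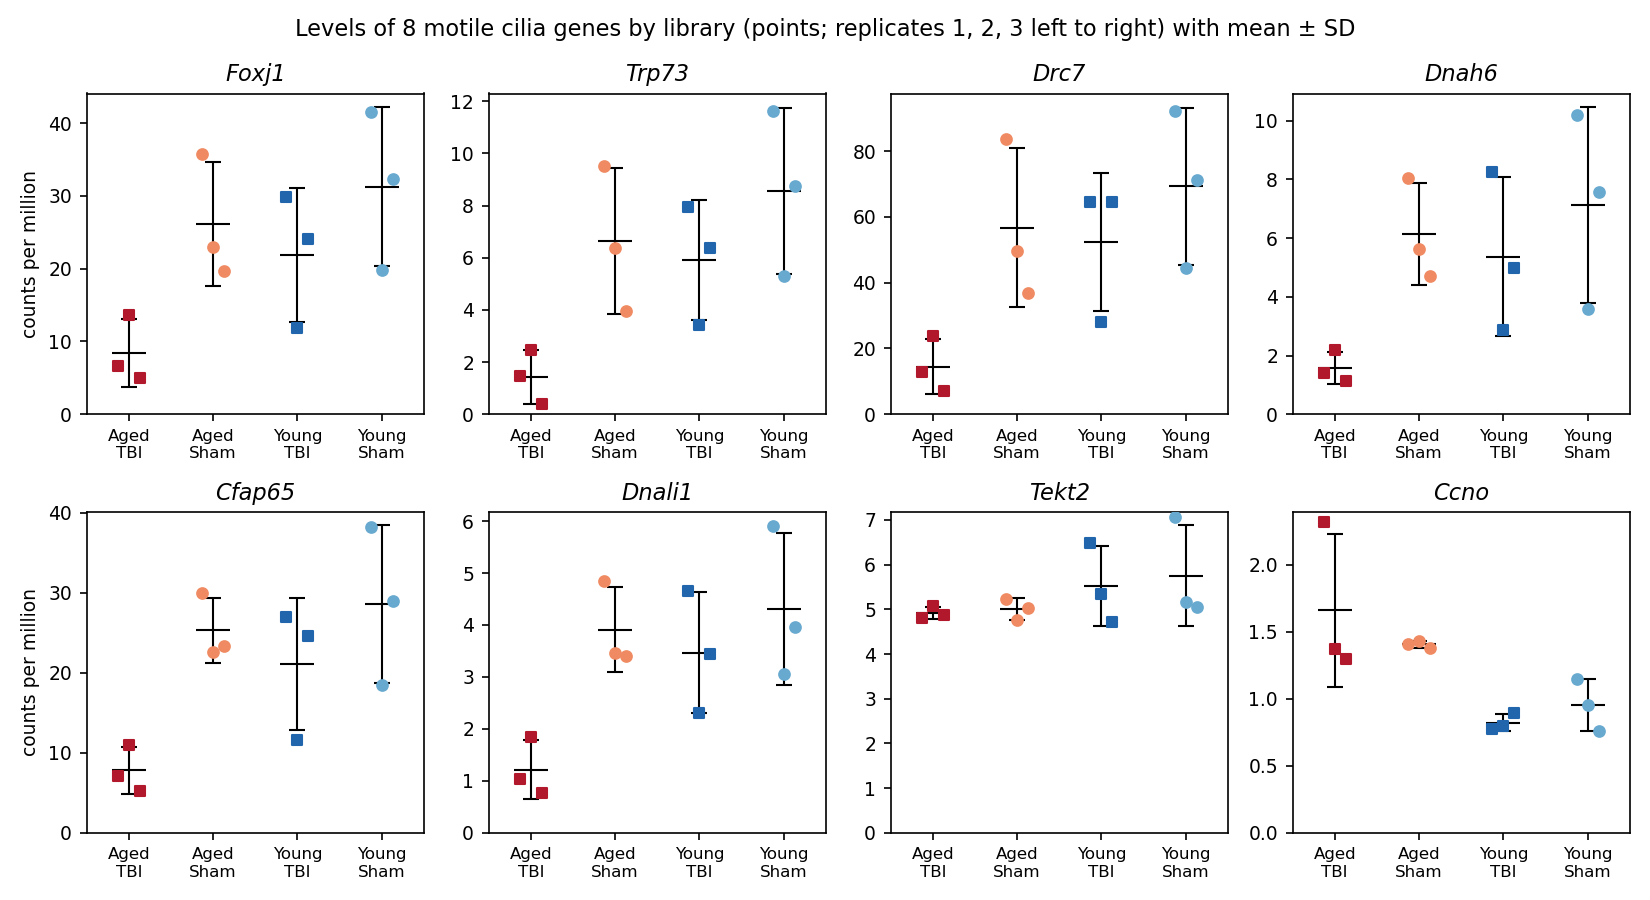
Levels of 8 members in CPM on linear axes for Aged TBI, Aged Sham, Young TBI and Young Sham, with a point per library and bars for the mean and SD of 3 libraries. The Aged TBI libraries lie below the Aged Sham libraries for the first 6 genes, with Foxj1 at 4.94 to 13.7 CPM against 19.7 to 35.7 CPM, while Tekt2 and Ccno overlap.

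These calls lay close to the threshold and depended on which libraries entered the fit. Without Young Sham 3, Young TBI 1, Young TBI 3, Aged Sham 1, Aged Sham 2, Aged TBI 1 or Aged TBI 3, the number of members called lower was 0, and without any of the other 5 libraries it was 7 to 13. Of all genes, 140 were still called lower without Aged Sham 1, and 0 without Young Sham 3, Young TBI 1, Young TBI 3, Aged Sham 2, Aged TBI 1 or Aged TBI 3. In the fits with 0 of all genes, the loss of calls was thus not particular to the members. DESeq2 called 20 of the 30 lower, against 2.69% of all genes, and 25 of 30 had an unadjusted p under 0.05 by edgeR in either direction, against 14.4% of all genes.

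Age among injured mice was addressed by Aged TBI against Young TBI. Here 13 of 30 members were lower (10.3% of all genes were) and 1 was higher (9.92% of all genes were). The median log2 fold change of the members was -1.0, against 0.02 over all genes. The 3 Aged TBI libraries were below the 3 Young TBI libraries for 10 of 30 members, and for 16.4% of all genes. This comparison shares the Aged TBI libraries with the one above.

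The members lower in Aged TBI included Foxj1, which had 6.64, 13.7 and 4.94 CPM in Aged TBI libraries 1 to 3, against 29.8, 11.8 and 24.1 CPM in Young TBI libraries 1 to 3. Its fold change on the log2 scale was -1.36 ± 0.43 (adjusted p = 0.0568), and the ranges overlapped because Aged TBI 2, at 13.7 CPM, exceeded Young TBI 2, at 11.8 CPM. Trp73 had 1.46, 2.47 and 0.380 CPM in Aged TBI, against 7.94, 3.43 and 6.38 CPM in Young TBI (log2 fold change -2.00 ± 0.54, adjusted p = 0.0297). Drc7 had 12.9, 23.7 and 6.92 CPM in Aged TBI, against 64.6, 28.0 and 64.6 CPM in Young TBI (log2 fold change -1.83 ± 0.46, adjusted p = 0.0242). Trp73 and Drc7 did not overlap, but in each the lowest Young TBI library, replicate 2, was near the highest Aged TBI library. Dnah6 had 1.40, 2.19 and 1.14 CPM in Aged TBI, against 8.23, 2.87 and 4.98 CPM in Young TBI (log2 fold change -1.74 ± 0.47). Spag6l had 1.89, 2.53 and 0.989 CPM in Aged TBI, against 7.65, 2.55 and 7.02 CPM in Young TBI (log2 fold change -1.63 ± 0.45). Cfap65 had 7.13, 11.03 and 5.25 CPM in Aged TBI, against 27.0, 11.6 and 24.6 CPM in Young TBI (log2 fold change -1.41 ± 0.35). For all 3 genes the low library of the young animals was again Young TBI 2, which was also the Young TBI library with the least Ttr.

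Further members called lower were Dnali1 at -1.49 ± 0.38, Cfap52, a protein of the inner microtubule wall, at -1.48 ± 0.42, and Rsph4a at -1.44 ± 0.49. Dnali1 had 1.04, 1.85 and 0.761 CPM in Aged TBI, against 4.65, 2.31 and 3.45 CPM in Young TBI. Cfap52 had 1.34, 2.81 and 1.14 CPM in Aged TBI, against 6.59, 2.15 and 6.38 CPM in Young TBI. Rsph4a had 1.71, 2.74 and 0.837 CPM in Aged TBI, against 7.46, 2.55 and 4.59 CPM in Young TBI. Cfap52 and Rsph4a thus overlapped through Young TBI 2, and Dnali1 did not overlap. The others were Zmynd10, Ak7, Rsph1 and Dnah9, with log2 fold changes of -1.20, -1.17, -1.01 and -0.52. Ccno was the exception, with 2.32, 1.37 and 1.29 CPM in Aged TBI, against 0.775, 0.797 and 0.893 CPM in Young TBI, no overlap and a log2 fold change of 1.03 ± 0.33 (adjusted p = 0.035). The count of lower members was 2 without Young TBI 1, 7 without Young TBI 3, 7 without Aged TBI 1, 5 without Aged TBI 3 and 12 to 16 without any other library. The call of Ccno was lost without Young TBI 1, Young TBI 2 or Aged TBI 1, and under DESeq2, which called 14 members lower and 0 higher, against 10.1% and 7.55% of all genes.

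**Figure D2:**
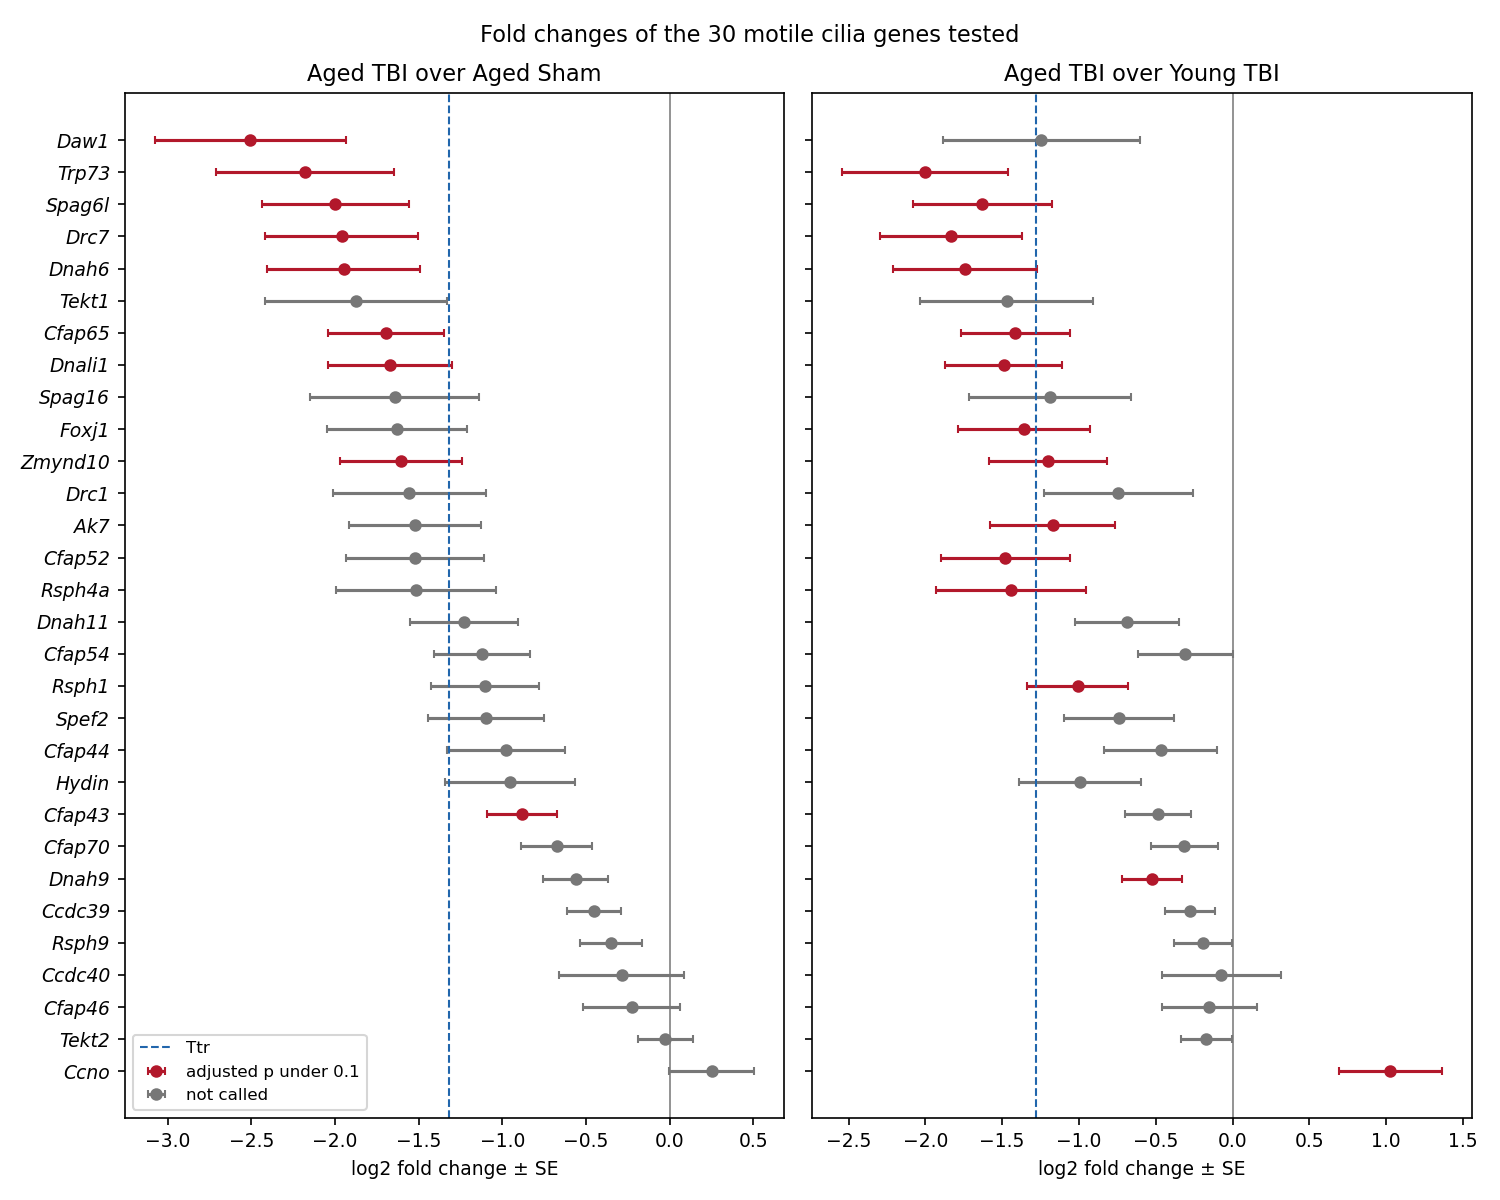
Fold changes on the log2 scale with standard errors for the 30 members tested, as Aged TBI over Aged Sham on the left and Aged TBI over Young TBI on the right, ordered by the left panel. Red marks an adjusted p under 0.1, grey marks members not called, and the dashed line marks Ttr at -1.32 on the left and -1.28 on the right. Values on the left span -2.51 for Daw1 to 0.25 for Ccno. Tekt2, Cfap46, Ccdc40, Rsph9 and Ccno are among the members to the right of the dashed line in both panels, as are others such as Dnah9 (-0.56 and -0.52).

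In young mice, injury was addressed by Young TBI against Young Sham. Of the 30 members, 0 were called higher (0.00548% of all genes were) and 0 lower (0% of all genes were) by edgeR, 1 had an unadjusted p under 0.05 (4.15% of all genes had), and DESeq2 called 0. The median log2 fold change was -0.32 and 29 of 30 values were negative. Foxj1 had 29.8, 11.8 and 24.1 CPM in Young TBI, against 41.6, 19.8 and 32.3 CPM in Young Sham, with wide overlap (log2 fold change -0.52 ± 0.40). Daw1 had the smallest p, with 0.872, 0.478 and 0.255 CPM in Young TBI, against 1.24, 1.22 and 1.85 CPM in Young Sham. Its ranges did not overlap, at 2 to 9 counts in Young TBI libraries, and its log2 fold change was -1.37 ± 0.50 (unadjusted p = 0.014, adjusted p = 1). Cfap43 had 6.68, 3.98 and 5.49 CPM in Young TBI, against 7.25, 7.13 and 7.49 CPM in Young Sham, also apart (unadjusted p = 0.0559). Drc1 had 1.84, 1.83 and 3.19 CPM in Young TBI, against 6.29, 1.77 and 3.20 CPM in Young Sham, and overlapped (unadjusted p = 0.14).

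Age without injury was addressed by Aged Sham against Young Sham, in which 7.89% of all genes were higher and 7.71% were lower. None of the 30 members was among them, 0 had an unadjusted p under 0.05 by edgeR (25.1% of all genes had), and DESeq2 called 0. The median log2 fold change was -0.09, with 19 of 30 negative. Foxj1 had 35.7, 23.0 and 19.7 CPM in Aged Sham, against 41.6, 19.8 and 32.3 CPM in Young Sham (log2 fold change -0.25 ± 0.39). Ccno had 1.41, 1.43 and 1.38 CPM in Aged Sham, against 1.14, 0.951 and 0.757 CPM in Young Sham, with no overlap (log2 fold change 0.57 ± 0.31, unadjusted p = 0.0649). Cfap54, of the central pair, had 4.22, 3.06 and 3.41 CPM in Aged Sham, against 3.53, 1.70 and 2.19 CPM in Young Sham (0.55 ± 0.28). Without Young Sham 1, Cfap54 was called higher (adjusted p = 0.0924, over a range of 0.0924 to 0.57 across the libraries left out). Rsph4a had 6.57, 4.49 and 4.22 CPM in Aged Sham, against 10.1, 3.94 and 8.08 CPM in Young Sham (-0.52 ± 0.43). Cfap54 and Rsph4a both overlapped between these groups.

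Whether the effect of injury differed between aged and young mice was tested as an interaction. Of the 30 members 0 were called, as was 0% of all genes in either direction. By edgeR 7 had an unadjusted p under 0.05, against 7.6% of all genes, and DESeq2 called 0 with 8 under 0.05, against 3.09% of all genes with a count. The 3 smallest were Spag6l at -1.87 ± 0.60 (unadjusted p = 0.00919), Dnali1 at -1.36 ± 0.50 (unadjusted p = 0.0186) and Cfap65 at -1.25 ± 0.48 (unadjusted p = 0.023). Each of them had an adjusted p of 0.643. Foxj1 stood at -1.11 ± 0.58 (unadjusted p = 0.0796). The larger number of calls after injury in aged mice than in young mice was therefore not shown to be a difference between the ages for any member.

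Ttr differed between the libraries along with these genes. It had 1021, 1797 and 662 CPM in Aged TBI, against 3374, 2620 and 2699 CPM in Aged Sham, and 3153, 1769 and 3529 CPM in Young TBI, against 3700, 2136 and 3113 CPM in Young Sham. The Aged TBI and Aged Sham ranges did not overlap, with a log2 fold change of -1.32 ± 0.33 (adjusted p = 0.109, not called). Young TBI 2 and Young Sham 2 had the least Ttr of their groups, as they had the least Foxj1 and Drc7. Each member was divided by Ttr in the same library to put this into numbers. Foxj1 varied 8.41-fold in CPM between the lowest and highest of the 12 libraries, but 1.73-fold per Ttr count, at 6.502 to 11.2 counts per 1000 Ttr counts. Drc7 varied 13.3-fold in CPM and 2.38-fold per Ttr count, Cfap65 7.28-fold and 1.69-fold, and Dnali1 7.77-fold and 1.64-fold. In contrast, Tekt2 varied 1.50-fold in CPM and 5.50-fold per Ttr count, Rsph9 1.91-fold and 4.06-fold, and Ccno 3.06-fold and 9.32-fold. Relative to Ttr the SD across libraries, on the log2 scale, was smaller than in CPM for 21 of 30 members (70%), and for 2.05% of all genes.

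**Figure D3:**
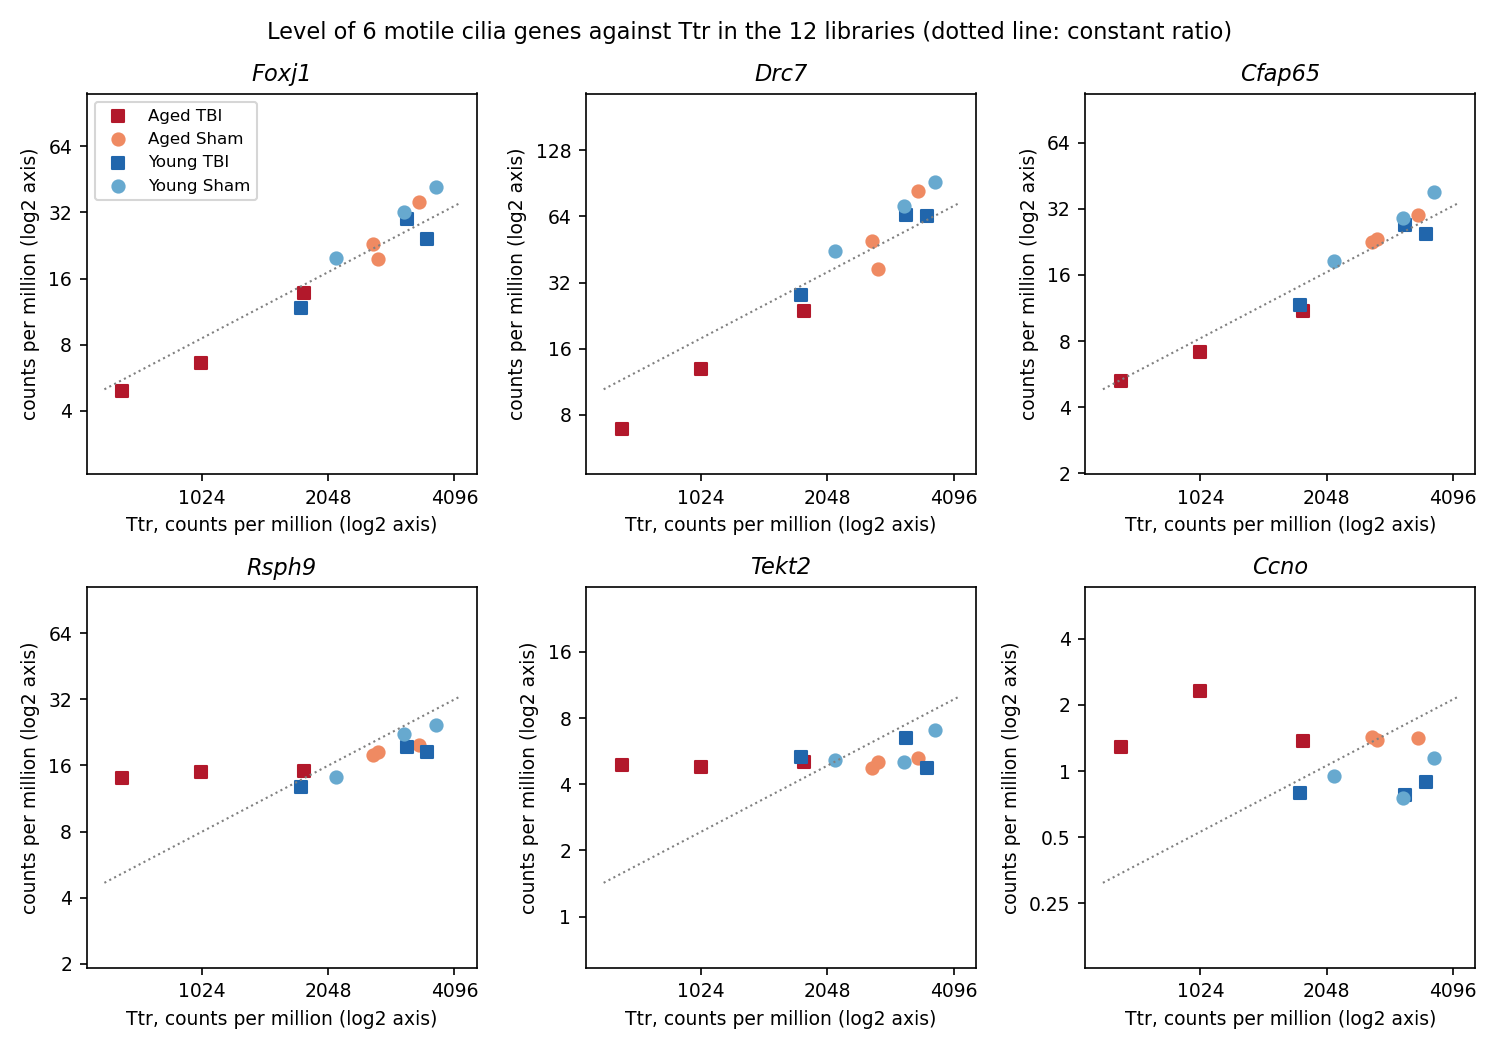
Level of 6 members against Ttr in the 12 libraries, both in CPM on log2 axes, with squares for TBI, circles for Sham and a dotted line of constant ratio. Foxj1, Drc7 and Cfap65 are lowest in Aged TBI 3, where Ttr is lowest at 662 CPM, whereas Rsph9, Tekt2 and Ccno lie above the line there, at 14.0, 4.87 and 1.29 CPM.

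To leave the differences between groups out, the slope of each gene on log2 Ttr was tested within groups. A slope of 1 means that a gene changes in proportion to Ttr among libraries of a group. Of the 30 members, 14 had a positive slope at an adjusted p under 0.1 and 0 had a negative one, against 0.899% and 0.00548% of all genes. They were Tekt1 (1.58 ± 0.20), Spag16 (1.48 ± 0.19), Trp73 (1.41 ± 0.24), Drc7 (1.33 ± 0.14), Rsph4a (1.32 ± 0.21), Foxj1 (1.22 ± 0.14), Spag6l (1.21 ± 0.20), Dnah6 (1.16 ± 0.25), Cfap52 (1.10 ± 0.19), Ak7 (1.04 ± 0.18), Cfap65 (1.02 ± 0.11), Dnali1 (0.95 ± 0.20), Cfap44 (0.95 ± 0.17) and Rsph1 (0.84 ± 0.15). Adjusted p-values were 0.00109 for Drc7, 0.0012 for Cfap65 and 0.00133 for Foxj1, and the highest was 0.0908 for Dnah6. The 5 nearest to or below 0 were Cfap70 (0.13 ± 0.19), Tekt2 (0.12 ± 0.14), Ccdc40 (0.08 ± 0.34), Ccno (0.03 ± 0.25) and Cfap46 (-0.41 ± 0.25). Daw1 and Zmynd10, both lower in Aged TBI than in Aged Sham, had slopes of 0.66 ± 0.47 and 0.52 ± 0.30 that were not called. The number of called slopes was 9 without Young Sham 2, 5 without Young TBI 2, 7 without Aged TBI 2 and 12 to 14 without any other library.

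**Figure D4:**
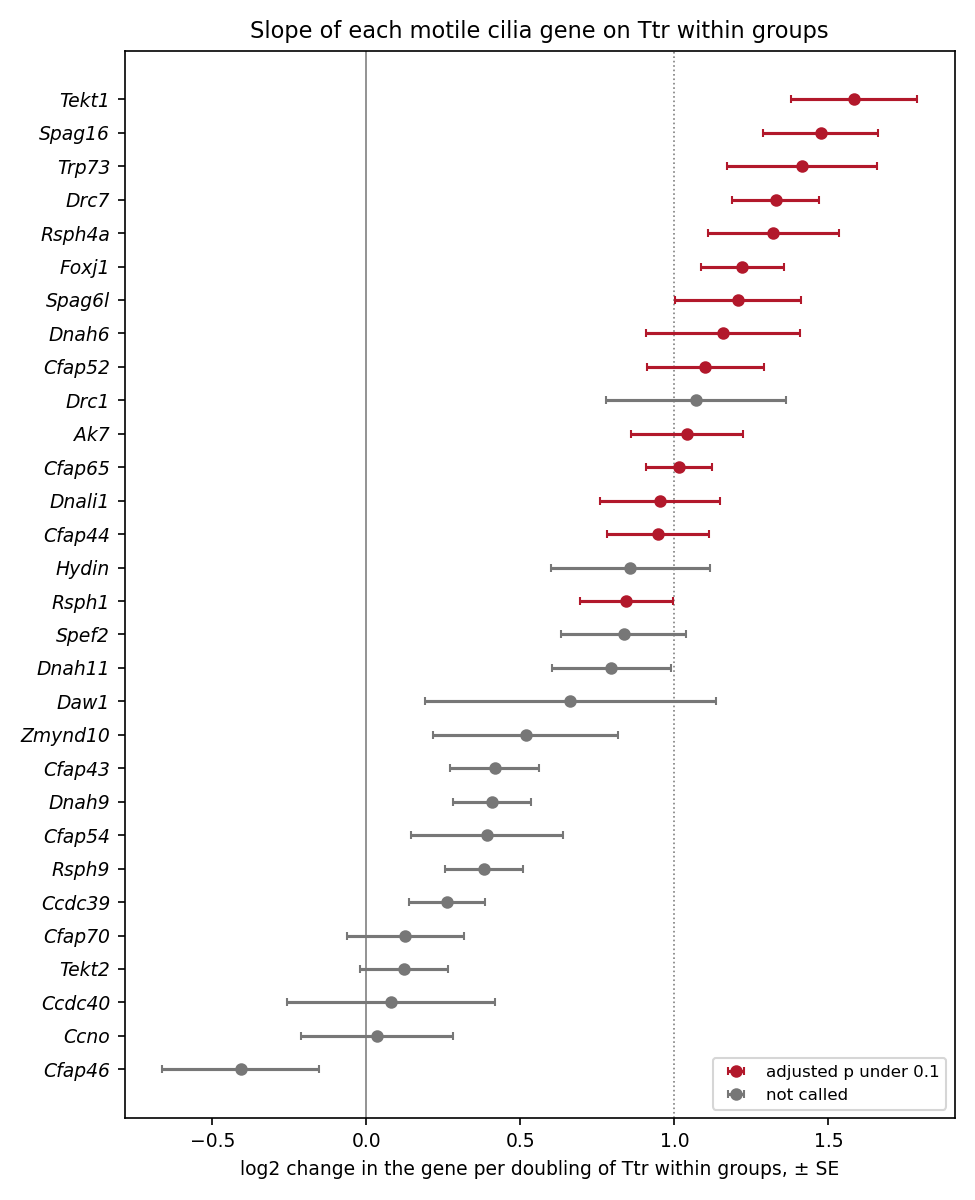
Slope of each of the 30 members on Ttr within groups, as the log2 change per log2 unit of Ttr with its standard error. The solid line marks 0 and the dotted line a change in proportion to Ttr, with Tekt1 at 1.58, Foxj1 at 1.22 and Cfap46 at -0.41.

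With log2 Ttr as a term beside the groups, 0 members were called in any comparison. In that fit 0 of all 18237 genes were lower and 34 higher in Aged TBI than in Aged Sham. Against Young TBI, 201 of all genes were lower and 298 higher, in place of 1874 and 1809 without the term. The loss of lower calls against Aged Sham was thus not particular to the members. Against Young TBI, part of the calls of all genes remained while those of the members did not. The median of the 30 log2 fold changes was then -0.12 for Aged TBI over Aged Sham, in place of -1.37, and 0.07 for Aged TBI over Young TBI, in place of -1.0. Foxj1 had a log2 fold change of -0.01 ± 0.24 for Aged TBI over Aged Sham in that fit, in place of -1.63 ± 0.42. Drc7 had -0.20 ± 0.24, in place of -1.96 ± 0.46. Ccno changed little, at 1.07 ± 0.45 for Aged TBI over Young TBI, against 1.03 without the term.

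Other choroid plexus epithelium markers moved with Ttr and with the members. Of 19 tested, Ttr included, 11 were lower in Aged TBI than in Aged Sham (median -1.63) and 16 were lower in Aged TBI than in Young TBI (median -1.44). Of all genes 1.26% and 10.3% were lower in these comparisons. The 11 became 0 without Young Sham 3, Young TBI 1, Young TBI 3, Aged Sham 2, Aged TBI 1 or Aged TBI 3, where 0 of all genes were called lower. They became 2 without Aged Sham 1 and 8 to 16 without any other library, and DESeq2 called 15 (2.69% of all genes). The 16 became 8 without Young TBI 1, 10 without Aged TBI 1 and 11 to 16 without any other library. The summed level of the list was 1876 to 4505 CPM in Aged TBI, against 6969 to 9794 CPM in Aged Sham, and 4526 to 8843 CPM in Young TBI, against 5847 to 10378 CPM in Young Sham. The largest in Aged TBI against Aged Sham were Tmem72 (-2.17), Steap1 (-2.00), Car12 (-1.98) and Kl (-1.96), the last encoding the klotho protein, which is abundant in choroid plexus. None of the 19 was at 0 in any library, and 14 of the 18 other than Ttr had a called positive slope on Ttr, against 0.899% of all genes. The part of choroid plexus in the level of the motile cilia genes was not tested.

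Markers of other ciliated cells and of the cells around them were looked at in the same way. The 8 ependymal genes listed that do not belong to the axoneme, such as S100b and Vim, summed to 1174 to 1258 CPM in Aged TBI, against 1084 to 1298 CPM in Aged Sham, and 1091 to 1125 CPM in Young TBI, against 990 to 1080 CPM in Young Sham. Of the 7 tested, 0 were called between Aged TBI and Aged Sham (1 had an unadjusted p under 0.05 by edgeR). In Aged TBI 4 were higher than in Young TBI (9.92% of all genes were), namely Nnat (0.86), Aqp4 (0.81), Cd24a (0.59) and Rarres2 (0.17). The 4 became 2 without Young TBI 1, Young TBI 2 or Aged TBI 1. Without injury 2 of the 7 were higher in Aged Sham than in Young Sham (7.89% of all genes were). Aqp4 was also on the astrocyte and neuron list, and the paper counts Cd24a among genes of T and B cell signalling. The sum therefore does not measure ependyma alone, and the part of ependyma in these levels was not tested. Tmem212, also on the list, did not exceed 0.484 CPM. Sntn, a marker of mature multiciliated cells, was at 0 counts in all libraries. Airway and nasal secretory genes summed to 131 to 248 CPM in Aged TBI, against 94.6 to 187 CPM in Aged Sham, and 81.8 to 182 CPM in Young TBI, against 62.5 to 186 CPM in Young Sham, and 0 of 11 tested had a called slope on Ttr. The gene Ltf, encoding lactotransferrin, which is also a neutrophil granule protein, took a mean of 160 CPM in Aged TBI and 99.8 CPM in Aged Sham, and 54.6 CPM in Young TBI and 47.9 CPM in Young Sham of this sum. Of the others, Scgb1a1, of club cells, did not exceed 0.084 CPM and Bpifa1 0.479 CPM, while Bpifb4 averaged 15.6 ± 6.4 CPM in Young TBI and 0.778 ± 0.57 CPM in Young Sham (SD, n = 3 each, adjusted p = 0.0558). Levels on this list were thus uneven, as Cyp2f2 averaged 22.9 CPM over all libraries and Sec14l3 ranged from 0.168 to 47.01 CPM. Of the 11 tested, 4 were lower and 1 was higher in Aged TBI than in Young TBI. Among all genes these shares were 10.3% and 9.92%. Olfactory neuron, pineal, astrocyte and neuron, basal epithelial and meningeal lists had 0 genes called between Aged TBI and Aged Sham, with medians of -0.47, 0.10, 0.04, 0.40 and 0.08. Of the 8 basal genes, however, 4 had an unadjusted p under 0.05 by edgeR (14.4% of all genes had), among them Krt5 (6.27 ± 3.19) and Krt14 (6.64 ± 3.79). Krt14 averaged 33.1 ± 56.5 CPM in Aged TBI, 0.322 ± 0.087 CPM in Aged Sham and 31.2 ± 52.3 CPM in Young Sham (SD, n = 3 each). Against Young TBI, 3 of the 8 were higher in Aged TBI (9.92% of all genes were).

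Further lists placed the members within cilium biology. Of 12 other regulators of multiciliated cells tested, 3 were lower in Aged TBI than in Aged Sham (1.26% of all genes were). They were Gmnc, at 1.34 ± 1.1 CPM in Aged TBI and 5.64 ± 1.3 CPM in Aged Sham (SD, n = 3 each, log2 fold change -2.05 ± 0.46, adjusted p = 0.081), Rfx2 (-0.60) and Rfx3 (-0.53). Gmnc was the only regulator of that list with a called slope on Ttr (1.26 ± 0.18). Between Aged TBI and Young TBI, Gmnc (-1.98) and Rfx2 (-0.46) were lower, and Deup1, which builds centrioles in multiciliated cells, and Myb were higher (1.53 and 0.83). Of all genes 10.3% were lower and 9.92% higher in that comparison. Deup1 averaged 1.26 ± 0.23 CPM in Aged TBI and 0.438 ± 0.10 CPM in Young TBI (SD, n = 3 each), and other centriole genes of the list were not called, with Plk4 at -0.01 and Cep152 at 0.11. The 3 regulators lower in Aged TBI than in Aged Sham became 0 without any of the 7 libraries named for the members, 1 without Young Sham 1 and 2 to 3 without any other library. For all of those 7 but Aged Sham 1, 0 of all genes were called lower too. Against Young TBI, 1 regulator was lower without Young TBI 1, Young TBI 3 or Aged TBI 3, 3 were lower without Aged TBI 2, and 1 was higher without Young TBI 1, Young TBI 2, Young TBI 3 or Aged TBI 3.

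Of 76 other motile axoneme genes tested, 7 were lower in Aged TBI than in Aged Sham and 0 higher, among them Capsl (-1.85), Cfap206 (-1.77), Efhc2 (-1.36) and Lrrc23 (-1.35). Of all genes 1.26% were lower and 0.389% higher. The median of the list was -0.53, nearer to 0 than the -1.37 of the 30 members, and 8 of the 76 had a called positive slope on Ttr (0.899% of all genes had). The 7 became 0 without any of the 7 libraries named for the members, 11 without Young TBI 2, 7 to 10 without any other library and 19 with DESeq2 (2.69% of all genes). For all of the libraries named for the members but Aged Sham 1, 0 of all genes were called lower too. Between Aged TBI and Young TBI 11 were lower (10.3% of all genes were), led by Cfap206 (-1.76) and Capsl (-1.46). In the same comparison 2 were higher (9.92% of all genes were), the dynein heavy chain Dnah7a (1.13) and the kinase Stk33 (1.10). The share of the list that was lower was thus near that of all genes, and the share that was higher was below it. The 11 became 4 without Young TBI 1, 5 without Aged TBI 1, 6 without Young TBI 3 or Aged TBI 3, 20 without Young TBI 2 and 10 to 15 without any other library, and the 2 became 1 without Young TBI 1 or Young TBI 2 and with DESeq2. Stk33 (0.91) and Odf3b (0.70) were higher in Aged Sham than in Young Sham, as were 7.89% of all genes. Of 50 genes of cilia in general, such as intraflagellar transport and Bardet-Biedl syndrome genes, 1 was lower in Aged TBI than in Aged Sham (Nphp4, -0.40, against 1.26% of all genes) and 1 higher in Aged TBI than in Young TBI (Ofd1, 0.39, against 9.92% of all genes). The first call was lost without any 1 of the 12 libraries. Their medians were -0.04 and -0.06, and 0 of 50 had a called slope on Ttr. The SD relative to Ttr was smaller than that in CPM for 28.9% of the 76 other motile axoneme genes and for 0% of the 50 general cilium genes.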

How the data were processed

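Dorsal meninges of young and aged male mice were profiled by bulk RNA-seq in 12 libraries, 3 in each of 4 groups taken from the sample labels. The deposited table held raw counts. The authors used HISAT2 for alignment to mm10, SAMtools for filtering and HTSeq for counting, after duplicate and uninformative reads had been taken out. Sources used here gave no version, annotation release or strand setting, so counts of genes with antisense or overlapping partners are uncertain. Removal of duplicates lowers the counts of abundant genes more than those of rare ones. Total counts were 8092374 to 16087717, and 0 columns of values were left unused.

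Counts were analysed with edgeR 4.0.16 in R 4.3.3 by a single quasi-likelihood fit over all 12 libraries. Genes were filtered by filterByExpr (18238 kept, 37147 set aside, of which 19413 had no count), TMM scaling was used, and a mean was fitted per group. The 5 contrasts were Aged TBI over Aged Sham, Aged TBI over Young TBI, Young TBI over Young Sham, Aged Sham over Young Sham and the interaction. P-values were two-sided, adjusted by Benjamini-Hochberg over all genes tested, and called under 0.1, the threshold of the study, which used DESeq2. Standard errors came from the fitted means and dispersions. The slope on Ttr was the coefficient of log2 Ttr CPM beside the group means, adjusted over 18237 genes. Ratios to Ttr used a pseudocount of 0.5 on the log2 scale. The fits were tested on simulated data.

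The members and lists were chosen with earlier results of these data known. All members are accounted for, and those named with values in every library were Foxj1, the members called in a contrast (the 8 largest where more were called) or, where none was called, the 3 with the smallest p. Of other lists up to 4 called genes per contrast were named. Tekt2, Tekt1 and other members outside this rule were named after their values were seen. Positions came from GENCODE M21 and promoters from RefSeq, both on GRCm38. Alternatives were RLE scaling, library totals alone, DESeq2 1.42.0, no filter, a minimum of 1 CPM in 3 libraries, only the 2 groups compared, a replicate block, Ttr as a term, and leaving out each library in turn. For the other lists, leaving out each library and DESeq2 were added after seeing the data. Floors (3 counts) cover counting error only, whereas standard errors also hold the fitted spread between libraries.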

Additional observations from a re-analysis of the deposited data

How the results depend on the processing

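The number of members lower in Aged TBI than in Aged Sham, 9 in the fit described, was 20 with no filter on low counts, 20 with DESeq2, 2 in a fit of only the 2 groups compared and 0 with log2 Ttr as a term, and ranged from 0 to 13 as each library was left out. Over all genes the number lower was 230 in the fit described, 481 with no filter, 479 with DESeq2, 69 in the fit of 2 groups and 0 with log2 Ttr as a term. It ranged from 0 to 278 as each library was left out. For Aged TBI against Young TBI, 13 lower members became 0 with log2 Ttr as a term and ranged from 2 to 16 as libraries were left out, and the 1 higher member became 0 with that term and with DESeq2 and ranged from 0 to 1. With that term 201 of all genes were lower and 298 higher, against 1874 and 1809 without it. Members higher in Aged Sham than in Young Sham ranged from 0 to 1, and called slopes on Ttr from 5 to 14. The other counts of members stayed at 0 in every setting run. Under RLE factors, library totals alone and a minimum of 1 CPM in 3 libraries, the counts lower in Aged TBI were 9, 9 and 9 against Aged Sham and 13, 12 and 13 against Young TBI. With log2 Ttr as a term the log2 fold change turned positive for 17 of the 29 negative members in Aged TBI over Young TBI, among them Foxj1 (0.18) and Rsph4a (0.21), for 10 of 29 in Aged TBI over Aged Sham, for 1 of 29 in Young TBI over Young Sham and for 17 of 26 in the interaction, among them Foxj1 (0.39) and Cfap65 (0.025), where 1 member turned negative. The log2 fold change of Foxj1 in Aged Sham over Young Sham ranged from -0.54 to 0.0066 (without Young Sham 1) as each library was left out. The cause was not tested for any of these.

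With the replicate number as a block, 1 member was lower in Aged TBI than in Aged Sham (49 of all genes were) and 12 in Aged TBI than in Young TBI (1717 of all genes were). The numbers were not shown to pair the libraries, since correlations of same-numbered deviations ranged from -0.178 to 0.111 and 1 of 12 such pairs had its best match at the same number. At 1126 to 4376 counts for all members together per library, Daw1 (2 to 27 counts) had the largest standard error of the 30 in Aged TBI over Aged Sham, 0.57.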
